A study of Mus musculus with 17 samples.

Results

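The subject here is a set of 10 smooth muscle contractile genes, Acta2, Actg2, Myh11, Tagln, Cnn1, Des, Myocd, Lmod1, Smtn and Mylk, in epididymal white adipose tissue, the fat pad beside the epididymis. They were taken by name, through 18 of the 41174 gene probes of the array, which stand for 10 of 27573 named genes. The tissue came from wild-type adult male C57BL/6J mice fed for 13 weeks on a purified diet in which fat supplied 30% of the energy. Its carbohydrate had either a low glycemic index (LGI, 8 arrays, numbered 1, 2 and 4 to 9) or a high glycemic index (HGI, 9 arrays, numbered 1 to 7, 9 and 10). Each array compared the RNA of 1 sample, in the dye Cy5, with a pool of the LGI and HGI samples, in the dye Cy3. Every value below is a log2 ratio of Cy5 to Cy3 from 1 array, so 0 is the level of the pool and 1 unit is a 2-fold difference. The labels give the samples only a number within a diet, so a p-value here reflects the spread among these arrays, which may be partly technical. Below, a mouse stands for the sample on 1 array, and these numbers do not state whether each was a separate animal.

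Smooth muscle cells contract when myosin, switched on by phosphorylation of its light chain, pulls on filaments of smooth muscle actin. Actin-binding proteins such as calponin and transgelin sit along these filaments, and desmin forms the intermediate filaments that tie the contractile units together. Much of this gene programme is driven by serum response factor, which binds a DNA element called the CArG box, and by its coactivator myocardin. In a fat pad, contractile smooth muscle is found in the walls of arteries and veins, while visceral smooth muscle forms the muscular coat of hollow organs and of the ducts and glands of the male reproductive tract.

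2 HGI arrays stood apart from the rest and bear on every result below. Over all tested genes, the log ratios of HGI 9 and HGI 10 correlated with each other at 0.81 and with those of the other 15 arrays at -0.04 to 0.15, while the other 15 correlated among themselves at 0.35 to 0.83. All 7 measured genes of seminal vesicle secretion, made by a gland of the male reproductive tract, were higher in both arrays than in any other array, by 2.52 to 8.00 above the median of the 15 in HGI 9 and by 2.64 to 7.85 in HGI 10. Both arrays were therefore left out of the diet comparison, which set 7 HGI against 8 LGI arrays, and are described singly, with no mean and no test, because they were set apart with their values known. All 10 adipocyte markers checked were well above background on enough arrays to be tested. Between 54.2% and 66.7% of gene spots were well above background in Cy5 on an array.

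Promoter sequence was looked at because several of these genes moved together. RefSeq (mouse assembly GRCm38.p6) lists the 250 bases before the start for 6 of the 10 genes, Acta2, Cnn1, Des, Lmod1, Mylk and Smtn. A CArG box, searched on both strands, was in 0 of these 6 windows and in 439 of 27025 genes with an entry (1.62%). With 1 base of the A/T core allowed to be C or G, a match was in 1 of the 6, Acta2, and in 2643 of all genes (9.78%). Acta2 held it at 2 places, CCCTATATGG at 84 to 75 bases and CCTTGTTTGG at 34 to 25 bases before the start. Of 27 other contractile genes with an entry, 4 (14.8%) held a CArG box and 8 (29.6%) a match with up to 1 such base. 3 windows are shown, 5′ to 3′ on the gene's strand, with those matches in capitals. Acta2 (chr19:34255374-34255623, minus strand) is shown as the gene with matches. Cnn1 (chr9:22099003-22099252, plus strand) is the member with the highest excess in HGI 9 and HGI 10 below. Smtn (chr11:3539293-3539542, minus strand) is the tested member with the lowest excess there. The windows of Cnn1 and Smtn held no match, nor did those of Des, Lmod1 and Mylk. A match is a string of letters and not a measured binding site, and a missing match says only that these letters are not in the window.
Acta2: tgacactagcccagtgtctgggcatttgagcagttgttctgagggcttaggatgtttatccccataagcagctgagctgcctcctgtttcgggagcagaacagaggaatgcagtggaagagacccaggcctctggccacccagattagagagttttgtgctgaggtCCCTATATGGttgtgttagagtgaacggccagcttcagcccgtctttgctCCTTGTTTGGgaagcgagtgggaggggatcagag
Cnn1: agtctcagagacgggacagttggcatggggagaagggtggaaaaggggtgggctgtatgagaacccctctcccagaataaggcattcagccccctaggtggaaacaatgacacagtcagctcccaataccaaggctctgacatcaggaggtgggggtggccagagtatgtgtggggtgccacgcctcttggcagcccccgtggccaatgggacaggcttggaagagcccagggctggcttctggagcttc
Smtn: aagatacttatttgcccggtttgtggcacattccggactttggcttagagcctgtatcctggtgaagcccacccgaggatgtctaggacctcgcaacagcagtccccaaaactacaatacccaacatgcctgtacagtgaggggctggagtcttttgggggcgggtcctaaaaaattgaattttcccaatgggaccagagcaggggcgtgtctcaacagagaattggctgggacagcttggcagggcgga

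The first comparison asked whether the contractile genes differed with the glycemic index of the diet. No member differed between HGI and LGI past the threshold. Mylk and Acta2 had the widest positive differences, 0.30 and 0.21, and Des had the only negative one, -0.09. limma's moderated test with Benjamini-Hochberg adjustment called 0 of 18202 genes at 0.05 (0% of the genes tested), while 1421 (7.81%) had an unadjusted p under 0.05. A fit with array weights called 1 gene, which was no member. Of the 9 members that could be tested, 8 had a difference above 0, against 50.2% of all genes, and 1 (Mylk, higher) had an unadjusted p under 0.05, against 5.05% of all genes higher and 2.76% lower. The median difference of the 9 was 0.10, against 0.0004 over all genes. In bulk tissue, fewer cells of a type and less RNA per cell cannot be told apart.

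Neither smooth muscle actin passed the test. Acta2 encodes smooth muscle alpha-actin, made by smooth muscle cells around vessels and by myofibroblasts. Its brightest probe lay between -0.87 and -0.004 in LGI mice, with a median of -0.51, and between -0.49 and 0.09 in HGI mice, with a median of -0.27. The groups overlapped, although all 7 HGI arrays lay above the LGI median. The difference was 0.21 ± 0.11 (SE, 8 LGI and 7 HGI arrays, limma adjusted p = 0.698). Actg2 encodes smooth muscle gamma-actin, the actin of visceral smooth muscle. It ran from -0.23 to 0.20 in LGI (median -0.17) and from -0.13 to 0.13 in HGI (median -0.03). The highest of these arrays was LGI 7, an LGI mouse, although all 7 HGI arrays again lay above the LGI median, and the difference was 0.10 ± 0.07 (SE, limma adjusted p = 0.789).

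Neither the motor protein nor the enzyme that switches it on passed the test. Myh11, the smooth muscle myosin heavy chain and the marker most restricted to smooth muscle in this set, gave a diet difference near 0. It lay between -1.33 and -0.35 in LGI (median -0.84) and between -1.07 and -0.42 in HGI (median -0.90), so the HGI values fell inside the LGI range, and the difference was 0.003 ± 0.13 (SE, limma adjusted p = 0.999). Mylk encodes myosin light chain kinase, the enzyme that starts contraction. Its brightest probe ran from -0.94 to 0.12 in LGI (median -0.48) and from -0.55 to 0.25 in HGI (median -0.17). 6 of 7 HGI arrays lay above the LGI median and 2 above the highest LGI array. The difference was 0.30 ± 0.14 (SE, limma unadjusted p = 0.0442, adjusted p = 0.622).

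None of the 4 proteins that bind the actin filament passed the test. Tagln encodes transgelin (SM22), and lay between -1.55 and -0.81 in LGI (median -1.21) and between -1.18 and -0.86 in HGI (median -1.12). All 7 HGI arrays were above the LGI median but none was above the highest LGI array, and the difference was 0.11 ± 0.10 (SE, limma adjusted p = 0.860). Cnn1, calponin 1, an inhibitor of the actomyosin motor, varied most from mouse to mouse. It ran from -3.64 to -1.60 in LGI (SD 0.61) and from -3.17 to -1.78 in HGI (SD 0.48), with medians of -2.87 and -2.83. The difference of 0.17 ± 0.24 (SE, limma adjusted p = 0.916) rested on single mice, being 0.02 without HGI 1 and 0.34 without LGI 9. Lmod1, leiomodin 1, which starts new actin filaments in smooth muscle, had medians of -0.20 in LGI (-0.38 to 0.09) and -0.06 in HGI (-0.41 to 0.14), and differed by 0.09 ± 0.09 (SE, limma adjusted p = 0.868). Smtn, smoothelin, a protein of contractile smooth muscle, stayed closest to the pool, between -0.17 and 0.13 in LGI and between -0.11 and 0.12 in HGI, with a difference of 0.01 ± 0.06 (SE, limma adjusted p = 0.975). Both genes overlapped between the diets.

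Desmin had a negative difference that did not pass the test. Des, the muscle intermediate filament, lay between -1.08 and -0.55 in LGI (median -0.70) and between -1.02 and -0.64 in HGI (median -0.90). 1 of 7 HGI arrays was above the LGI median, and the difference was -0.09 ± 0.09 (SE, limma adjusted p = 0.865). Myocd, the coactivator of the programme, was too dim to test. Its 2 probes were well above background on 6 and on 3 of the 15 arrays, fewer than the 7 required. Their differences were 0.08 ± 0.06 and -0.08 ± 0.09 (SE), near background and of opposite sign.

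**Figure D1:**
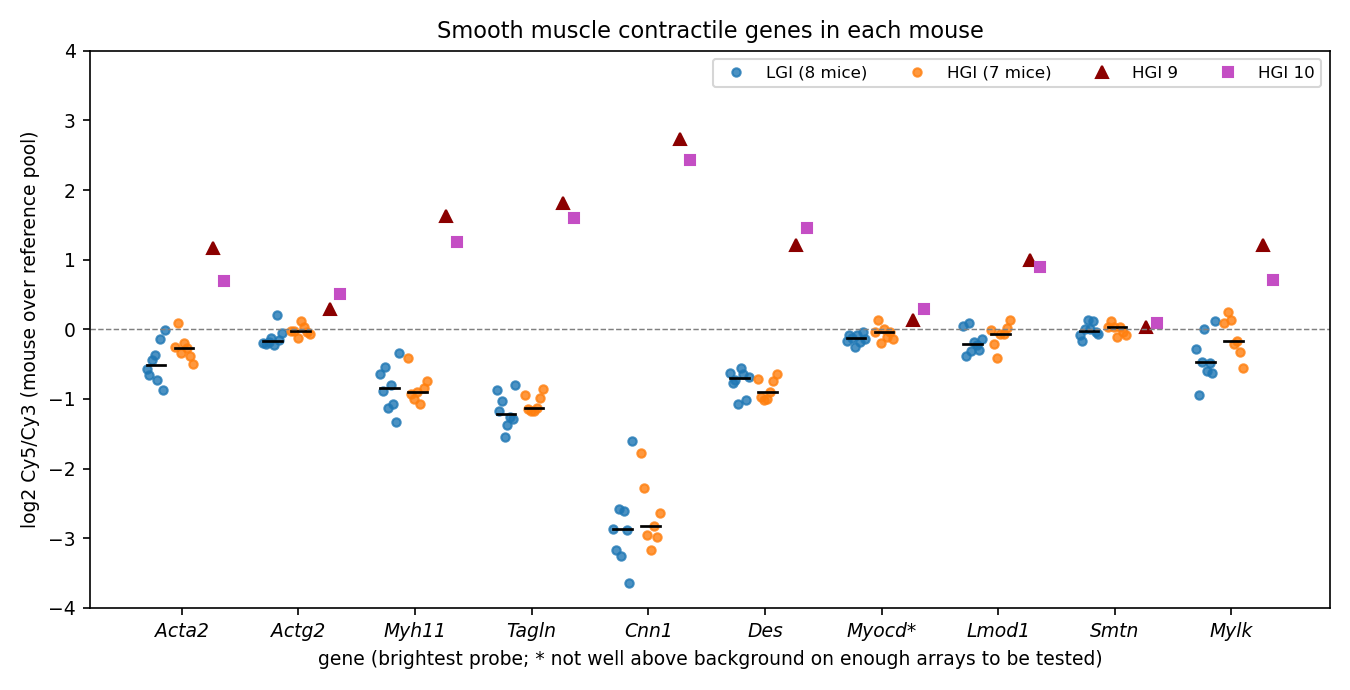
Each point is the log2 Cy5/Cy3 ratio (vertical axis) of 1 array at the brightest probe of each gene (horizontal axis), for 8 LGI and 7 HGI mice with black bars at the medians, and for HGI 9 and HGI 10 by their own symbols. The diets overlap for every gene, while HGI 9 and HGI 10 lie above all 15 other arrays for every tested gene but Smtn, from 0.29 and 0.51 for Actg2 to 2.74 and 2.43 for Cnn1. Myocd, marked with an asterisk, was too dim to test and had 0.14 and 0.29 in these arrays (highest other 0.13).

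Probes of 1 gene did not all give the same diet difference. For Mylk, the first and the second probe differed by 0.30 ± 0.14 and 0.34 ± 0.14 (SE, limma adjusted p over all 25643 tested probes 0.647 and 0.599) and correlated at 0.89 over the 15 arrays, while the third, on a cDNA clone, differed by -0.02 ± 0.07 and correlated with the first at -0.05. Acta2 probes 1, 2 and 3 differed by 0.21, 0.17 and 0.24, and probe 4, on a cDNA clone, by -0.06. The 2 Tagln probes differed by 0.11 and 0.08 and correlated at 0.53. Acta2 probe 5 was well above background on 1 of 15 arrays and was not tested. No member spot was saturated.

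**Figure D2:**
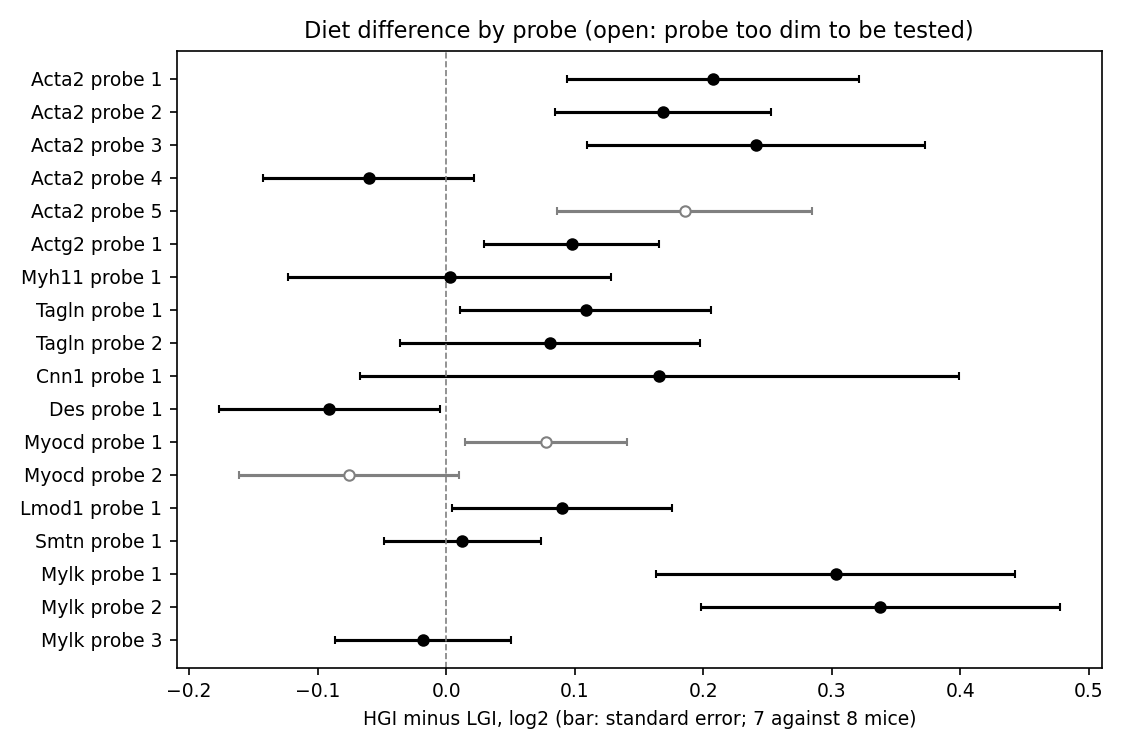
Points give the difference HGI minus LGI in log2 units (horizontal axis) for each of the 18 member probes (vertical axis) over 7 HGI and 8 LGI mice, with bars of 1 standard error; open points are probes too dim to test. The first 2 Mylk probes lie furthest to the right, at 0.30 and 0.34, and no tested probe passed the threshold.

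The differences were also taken within groups of arrays by scan order, where whether the groups differ was not tested, and with HGI 9 and HGI 10 included. Within the first 7 scanned of the 15 arrays (4 LGI, 3 HGI) and the later 8 (4 LGI, 4 HGI), Mylk differed by 0.50 and 0.14, Acta2 by 0.09 and 0.32, Cnn1 by 0.04 and 0.32, and Des by -0.21 and 0.03. Actg2 gave 0.03 and 0.16, Tagln 0.07 and 0.14, Lmod1 0.07 and 0.09, Myh11 -0.05 and 0.06, and Smtn 0.06 and -0.03. With HGI 9 and HGI 10 included, the median member difference was 0.47 in place of 0.10. Cnn1 then differed by 1.33 ± 0.74 (SE, limma adjusted p = 0.692), Tagln by 0.72 ± 0.38 (adjusted p = 0.665), Myh11 by 0.51 ± 0.33, Mylk by 0.54 ± 0.20 (adjusted p = 0.549) and Acta2 by 0.47 ± 0.20 (adjusted p = 0.590). Des changed sign, to 0.39. None passed the threshold with these arrays included.

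The second comparison set HGI 9 and HGI 10, each as a single array, beside the other 15. 8 of the 9 tested members were above the highest of the 15 in both arrays, against 10.9% of all genes, and 6 were over 1 log2 unit above the median in both, against 1.74% of all genes. The median excess of the 9 over the median of the 15 was 1.54 in HGI 9 and 1.07 in HGI 10, against -0.009 and -0.01 over all genes. Members were named as a set with these arrays' values known, so these shares describe the 2 arrays and carry no test.

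The excess spread over a wide range within the set. Cnn1 had values of 2.74 in HGI 9 and 2.43 in HGI 10, where the highest other mouse, LGI 9, had -1.60. That is 48.8-fold and 39.4-fold above the median of the 15, which ranks 11 among 18199 genes by the smaller of the 2 excesses. Tagln had 1.82 and 1.59 (highest other -0.81), 7.82-fold and 6.68-fold above the median, rank 34. Myh11 had 1.63 and 1.26 (highest other -0.35), 5.71-fold and 4.42-fold, rank 59. Des had 1.21 and 1.45 (highest other -0.55), 3.87-fold and 4.57-fold, rank 70. The size for Des varied most with the processing: its excess, 1.95 and 2.19 log2 units here, was 3.39 and 3.76 with scanner processed signals and 1.26 and 1.44 with the authors' deposited values. With the latter, Myh11 in HGI 9 had an excess of 1.72 in place of 2.51 and Cnn1 in HGI 10 of 4.70 in place of 5.30. These 4 genes were clear of every other mouse by at least 1.605 log2 units.

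The other members were nearer to the rest of the mice. Acta2 had 1.17 and 0.70 (highest other 0.09), 2.90-fold and 2.10-fold above the median. Lmod1 had 1.00 and 0.89 (highest other 0.14), 2.21-fold and 2.04-fold, and Mylk had 1.21 and 0.71 (highest other 0.25), 2.81-fold and 1.99-fold. Actg2, the visceral actin, had 0.29 and 0.51 against a highest other value of 0.20, only 1.28-fold and 1.49-fold above the median, and under median centring in place of loess it was no longer above all 15. Smtn had 0.03 and 0.09, inside the range of the other mice (highest 0.13). Both Myocd probes, dim elsewhere, were well above background in HGI 9 and HGI 10. The first was 0.24 and 0.39 above its median and the second 0.44 and 0.46, in each case above all 15 other arrays, the first probe in HGI 9 by only 0.005.

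Probes of 1 gene did not always give the same excess. Acta2 probes 1, 3 and 4 lay 1.54, 2.56 and 1.54 above the median in HGI 9 and 1.07, 2.16 and 1.35 in HGI 10. Probe 2, designed on the same transcript, lay only 0.33 and 0.27 above it, and HGI 10 was below the highest of the 15 there. Over the 15 arrays this probe correlated at 0.83 with the Actg2 probe and at 0.65 with Acta2 probe 1. Actin genes are similar in their coding sequence and the probes' own sequences were not used here, so how far an actin probe reads other actins was not tested. Mylk probe 2 lay 1.61 and 0.99 above its median and probe 3 lay -0.09 and -0.06 from it. Tagln probe 2 lay 2.80 and 2.30 above.

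Another description of the same values is the share of a gene's summed ratio that HGI 9 and HGI 10 held. For Cnn1, 83.4% of the summed linear ratio over the 17 arrays lay in these 2, against 11.6% for the median gene. The shares were 48.4% for Tagln, 39.2% for Myh11, 36.8% for Des, 24.8% for Acta2, 23.6% for Mylk and 21.9% for Lmod1. They were 15.6% for Actg2 and 12.2% for Smtn.

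Other genes of smooth muscle and its neighbours were counted the same way, from lists of markers that share some genes. Of the tested genes, Synm, Synpo2, Pgm5 and Itga8 stand in the contractile and the visceral list. Foxf1 stands in the regulator and the visceral list, and Notch3 and Heyl in the regulator and the mural list. None of the genes in any of these lists was called between the diets. Of 27 tested genes of the wider contractile and cytoskeletal apparatus, 11 were above all 15 arrays in both HGI 9 and HGI 10 (10.9% of all genes were), 1 was below (5.34%), and 7 were over 1 unit above the median (1.74%). Tpm2, a smooth muscle tropomyosin, led with 3.06 and 2.84 above the median, followed by Synm, an intermediate filament protein partnered with desmin, with 2.09 and 1.80. Myl9, the smooth muscle myosin light chain (1.96 and 1.79), Pdlim3 (2.00 and 1.65), Csrp1 (1.84 and 1.499), Pgm5 (1.74 and 1.49) and Tpm1 (1.44 and 1.09) made up the 7, and apart from Pgm5 these were named after their values were seen. Between the diets, 5 of the 27 had an unadjusted p under 0.05, each with a positive difference (5.05% of all genes did), led by Kcnma1, a potassium channel subunit (0.20 ± 0.07 SE, limma adjusted p = 0.544), and Nexn, an actin-binding protein (0.26 ± 0.10, adjusted p = 0.549). The median excess of the list was 0.39 in HGI 9 and 0.20 in HGI 10.

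Transcriptional regulators of the programme lay on both sides of the other mice. Of 11 tested, 1 was above all 15 arrays in both HGI 9 and HGI 10 (10.9% of all genes were) and 3 were below (5.34% of all genes), with median excesses of -0.08 and -0.10. Srf, serum response factor itself, was the 1 above, at 0.13 and 0.08 over the median. In HGI 10 it cleared the 15 only narrowly, at 0.291 against a highest other value of 0.283. The 3 below were Klf4 (-0.64 and -0.50), Notch3 (-0.61 and -0.57) and Gata6. Klf4, Notch3, Mrtfa and Mrtfb were named after their values were seen. Mrtfb, a coactivator of serum response factor, lay 0.50 above the median in HGI 9, above all 15, and 0.01 above it in HGI 10. Mrtfa lay at -0.17 and -0.05 from the median. Gata6 lay at -0.40 and -0.44 from the median and had the smallest diet p of the list (-0.21 ± 0.08 SE, limma adjusted p = 0.554). Foxf1 lay 0.11 and 0.17 above and Smad3 -0.07 and -0.01 from the median.

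Visceral and vascular markers were set side by side. Of 12 visceral genes, 5 could be tested. Synm and Pgm5 were above all 15 arrays in both HGI 9 and HGI 10 (10.9% of all genes were). Synpo2, an actin-bundling protein, lay 0.41 and 0.25 above the median without clearing them. Itga8 lay 0.53 and 0.02 above the median, over all 15 in HGI 9 only. Foxf1 lay 0.11 and 0.17 above it, over all 15 in HGI 10 only. The list's median excess was 0.53 and 0.25. Of the 7 visceral genes too dim to test, 1, the muscarinic receptor Chrm2, was well above background in both arrays (0.67 and 0.40, highest of the 15 0.33), while it was so on 1 of the 15. The share of all dim genes well above background in both arrays was not computed, so such counts, here and below, have no background beside them. Of 13 tested markers of vascular smooth muscle and pericytes, none was above all 15 arrays in both (10.9% of all genes were) and 4 were below (5.34%), with median excesses of -0.37 and -0.26. The 4, named after their values were seen, were Notch3 (-0.61 and -0.57), Pdgfrb (-0.47 and -0.32), Gucy1a1 (-0.64 and -0.81) and Rgs4 (-0.47 and -0.27). Rgs5, a pericyte regulator of G-protein signalling, lay at -0.41 and -0.26 from the median and had the smallest diet p of that list (0.32 ± 0.09 SE, limma unadjusted p = 0.0016, adjusted p = 0.491). Heyl, a Notch target, lay at 0.01 and -0.10, Ednra, the endothelin receptor, at -0.07 and -0.12, and Kcnj8 at -0.19 and -0.15.

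Means over a list gave each array 1 value. The mean of the 9 tested members ran from -1.03 to -0.40 in LGI and from -0.76 to -0.45 in HGI, and was 1.23 in HGI 9 and 1.07 in HGI 10. The mean of the mural markers ran from -0.01 to 0.19 in LGI and from 0.04 to 0.20 in HGI, and was -0.24 and -0.19. That of the 10 endothelial markers ran from -0.02 to 0.19 and from 0.08 to 0.23, and was -0.30 and -0.20. So HGI 9 and HGI 10 were above all other mice for the contractile genes and below all of them for the mural and the endothelial markers. Of the endothelial genes 6 were below all 15 arrays in both and none above, against 5.34% of all genes below. Vwf lay at -0.39 and -0.55 from the median, Kdr at -0.45 and -0.28, Eng at -0.20 and -0.20, and Egfl7 at -0.36 and -0.09.

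Markers of other tissues moved with the contractile genes in HGI 9 and HGI 10, and their part in the result was not tested. The mean of the seminal vesicle genes was 1.59 and 1.58 in these arrays, against -4.30 to -3.93 in LGI and -4.28 to -3.98 in HGI, with Pate4 8.00 and 7.85, Svs3a 6.90 and 6.93 and Svs1 5.39 and 5.12 above the median. Of 5 tested epithelial genes, 4 were over 1 unit above the median in both arrays (1.74% of all genes were). The median excess of the 5 was 2.06 in HGI 9 and 1.80 in HGI 10. Krt18 (3.84 and 3.36) and Cldn3 (2.06 and 1.95) were above all 15 arrays in both (10.9% of all genes were). Krt19 (1.22 and 0.86) was not in HGI 10. All 5 too dim to test elsewhere were well above background in both. Of these, Cdh1 had 0.91 and 0.82 (highest of the 15 0.69). Epcam (highest of the 15 0.97), Esrp1 (0.87), Elf3 (0.57) and Cldn4 (0.36) were not above all 15 in either array. Of 8 tested epididymal genes 2 were above all 15 in both (10.9% of all genes were), with median excesses of 0.27 and 0.28. Rnase10 lay 0.82 and 0.30, Lcn8 0.57 and 0.37, Cst8 0.29 and 0.38 and Adam7 0.04 and -0.01 from the median. The mean of the epididymal list stayed low in these arrays, at -3.21 and -3.27, against -3.66 to -3.07 in LGI and -3.72 to -3.26 in HGI.

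Striated muscle offered a check on other kinds of muscle. 9 of 17 genes could be tested, and 3 of them were above all 15 arrays in both (10.9% of all genes were). These were Acta1 (1.64 and 1.29 above the median) and Actc1 (1.11 and 1.14), the skeletal and cardiac actins, and Tnnc2, a fast troponin (1.72 and 1.80). None of the 8 genes too dim to test, among them the skeletal myosins Myh1 and Myh4, was well above background in both arrays. The list's median excess was 0.07 and 0.16.

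The remaining lists lay lower in HGI 9 and HGI 10 or near the other mice. Fibroblast markers had median excesses of -0.45 and -0.38, with 2 of 10 below all 15 in both (5.34% of all genes were). Col3a1 lay at -0.84 and -0.54 and Col1a1 at -0.47 and -0.79 from the median, Ly6a at -0.25 and 0.04, and Mfap5 at 0.18 and 0.07. Between the diets Col3a1 differed by 0.38 ± 0.10 and Col1a1 by 0.34 ± 0.13 (SE, limma adjusted p = 0.492 and 0.544). Adipocyte markers had medians of -0.28 and -0.32, with Fabp4 0.48 and 0.47 above and Adipoq at -0.18 and 0.07, and diet differences of -0.17 ± 0.07 and -0.18 ± 0.10 (SE, adjusted p = 0.577 and 0.698). Of the 10 adipocyte markers, 2 were below all 15 in both (5.34% of all genes were) and 1 was above (10.9%). The diet difference was negative for 9 of the 10, and 1 of the 10 was lower with an unadjusted limma p under 0.05 (2.76% of all genes). Mesothelial markers had medians of -0.10 and -0.16, with Gpm6a at 0.86 and 0.49 and Bnc1 at -0.05 and 0.17 from the median. All 7 had a negative diet difference, 4 of them with an unadjusted p under 0.05 (2.76% of all genes were lower at that level), and Gpm6a differed by -0.36 ± 0.10 and Bnc1 by -0.24 ± 0.09 (SE, limma adjusted p = 0.492 and 0.544).

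**Figure D3:**
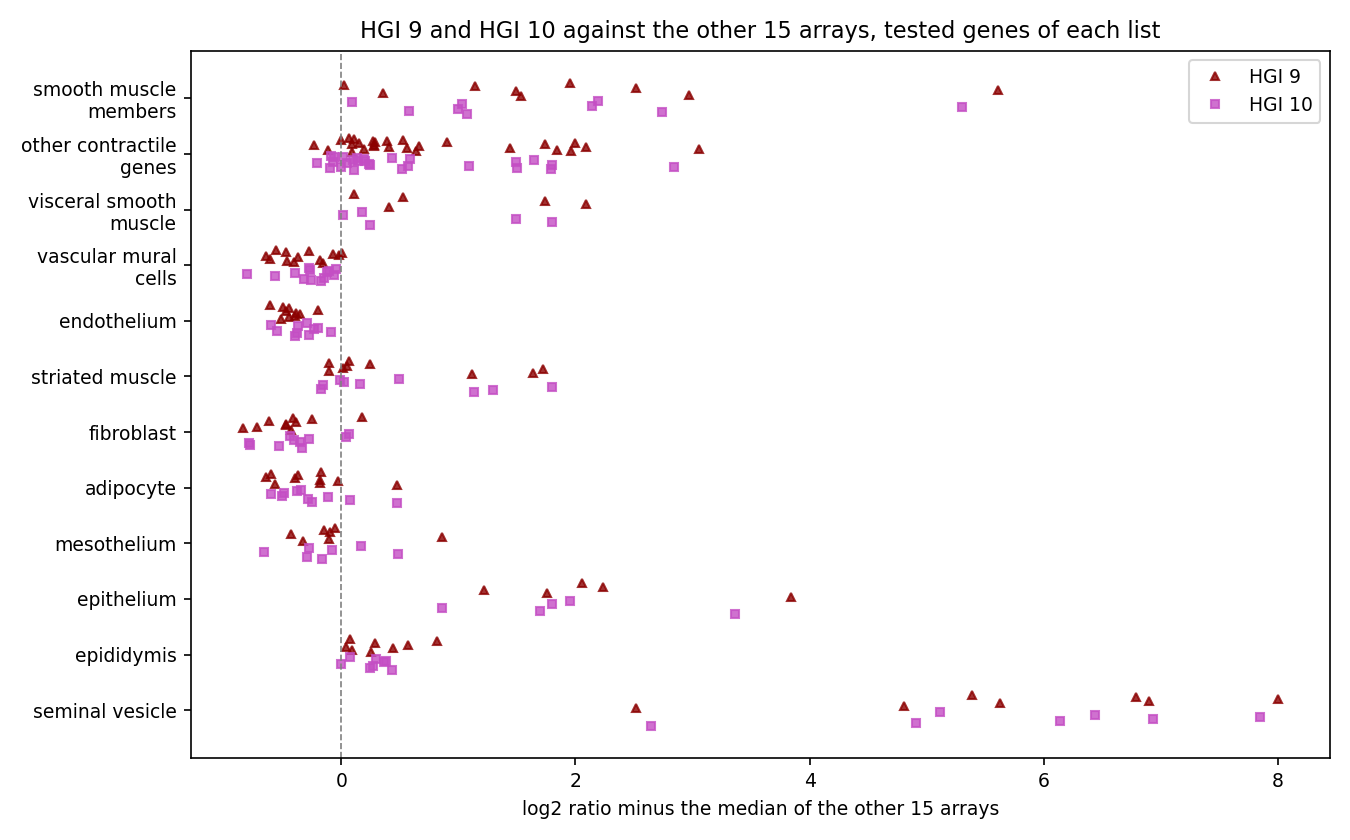
Each point is 1 tested gene of a list (vertical axis) by its log2 ratio in HGI 9 (triangles) or HGI 10 (squares) minus the median of the other 15 arrays (horizontal axis, log2 units). The smooth muscle members reach 5.61 and 5.30 (Cnn1), the seminal vesicle genes 8.00 and 7.85 (Pate4), and the vascular mural and endothelial genes lie at or below 0, apart from Heyl at 0.01 in HGI 9.

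The third comparison asked whether the members varied together among the 15 mice of the diet comparison. Of 36 pairs of members, 5 correlated past the threshold by Pearson's r and 6 by Spearman's rho (2-sided permutation tests with 100000 resamples, Benjamini-Hochberg over the 36 pairs). The share of all gene pairs with such an r was not computed, so these counts have no background beside them. Among genes outside the set, the highest r was 0.84 with Myh11 (Adgra2) and 0.84 with Actg2 (Dusp10). Myh11 and Cnn1 gave r = 0.82 (permutation p = 0.00019, adjusted 0.00684) and rho = 0.71 (permutation p = 0.00388, adjusted 0.0279). Myh11 and Tagln gave r = 0.74 (permutation p = 0.00181, adjusted 0.0217) and rho = 0.77 (permutation p = 0.00131, adjusted 0.0169). Acta2 and Mylk gave r = 0.75 (permutation p = 0.00146, adjusted 0.0217) and rho = 0.76 (permutation p = 0.00141, adjusted 0.0169). Acta2 and Actg2 gave r = 0.68 (permutation p = 0.00515, adjusted 0.0446) and rho = 0.80 (permutation p = 0.00058, adjusted 0.0169). Tagln and Lmod1 gave r = 0.67 (permutation p = 0.0062, adjusted 0.0446) and rho = 0.74 (permutation p = 0.00201, adjusted 0.0181). Myh11 and Des passed by rho only, with r = 0.62 (adjusted permutation p = 0.0829) and rho = 0.67 (adjusted permutation p = 0.0452).

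These relations kept their sign within diets, within scan groups and without the 2 arrays furthest from the median of the gene named first in the pair. Arrays far out only for the gene named second were kept, such as LGI 7 for Actg2 and LGI 2 for Mylk. For Myh11 and Cnn1, r was 0.83 on deviations from the diet means, 0.93 and 0.70 in the 7 first and 8 later scanned arrays, and 0.62 without HGI 1 and LGI 9. For Myh11 and Tagln it was 0.77, 0.76 and 0.77, and 0.65 without the same arrays. For Acta2 and Mylk it was 0.69, 0.70 and 0.85, and 0.66 without HGI 2 and LGI 8. For Acta2 and Actg2 it was 0.61, 0.76 and 0.61, and 0.76 without those arrays. For Tagln and Lmod1 it was 0.64, 0.42 and 0.89, and 0.75 without LGI 9 and LGI 5. The pairs that passed depended on the values used: 9 of 36 passed on Cy5 intensities alone and 0 on the authors' deposited log2 values.

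Sorted by these correlations, the members fell into 2 sets, which were chosen after their values were seen and so carry no test. Among Myh11, Tagln, Cnn1, Des and Lmod1 the 10 pairs ran from 0.35 to 0.82, with a median of 0.57. Among Acta2, Actg2, Smtn and Mylk the 6 pairs ran from 0.28 to 0.75, with a median of 0.47. The 20 pairs between the sets ran from -0.47 to 0.58, with a median of 0.06, and none passed the threshold. The split was less clear within scan groups. Pairs inside the first set went down to -0.12 in the first scanned arrays, and pairs inside the second to -0.18 in the later ones. Pairs between the sets reached 0.69 and 0.65 there.

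**Figure D4:**
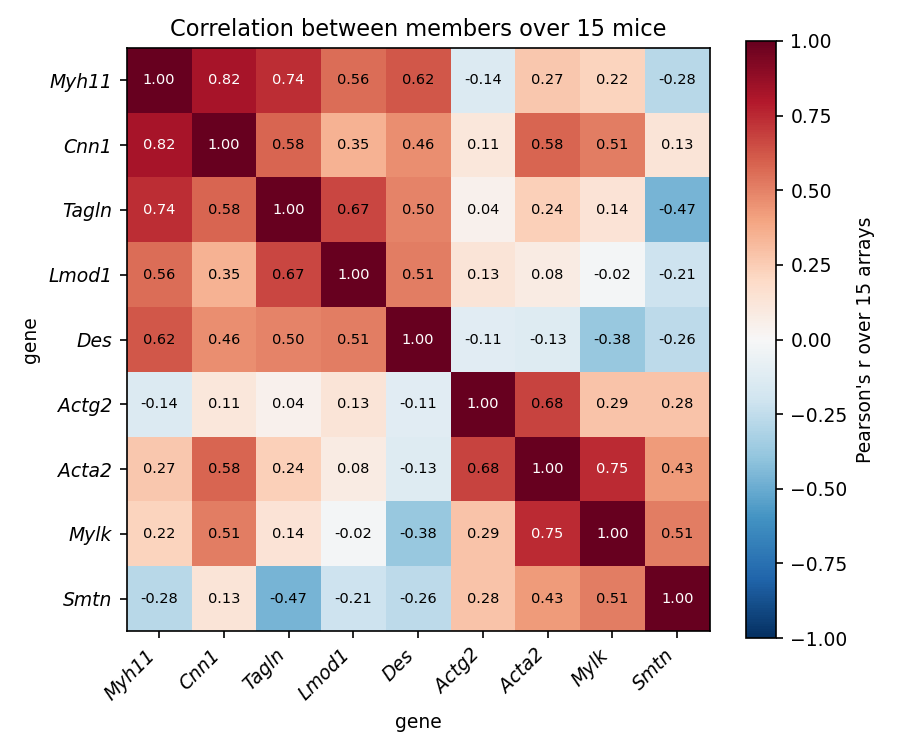
Each cell gives Pearson's r between 2 members (gene names on both axes) over the 15 mice, coloured from -1 (blue) to 1 (red). The block of Myh11, Cnn1, Tagln, Lmod1 and Des runs from 0.35 to 0.82, and the cells between this block and Actg2, Acta2, Mylk and Smtn run from -0.47 to 0.58.

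Single mice stood at the ends of these ranges. LGI 9 was the highest of the 15 for Myh11, Cnn1 and Tagln, and HGI 1 was the second highest for Myh11 and Cnn1. LGI 8 was the lowest for Myh11, Cnn1 and Acta2, and HGI 2 was the highest for Acta2 and Mylk. In LGI 9 the mean of the 5 tested epithelial genes was also the highest, 0.38, where the LGI median was -1.20 and the HGI arrays of the 15 lay between -1.78 and -0.96. LGI 9 had the lowest mean of the adipocyte markers, -0.28. Its mean of the seminal vesicle genes was -4.08, inside the range of the other mice. What these values share with its contractile genes was not tested.

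**Figure D5:**
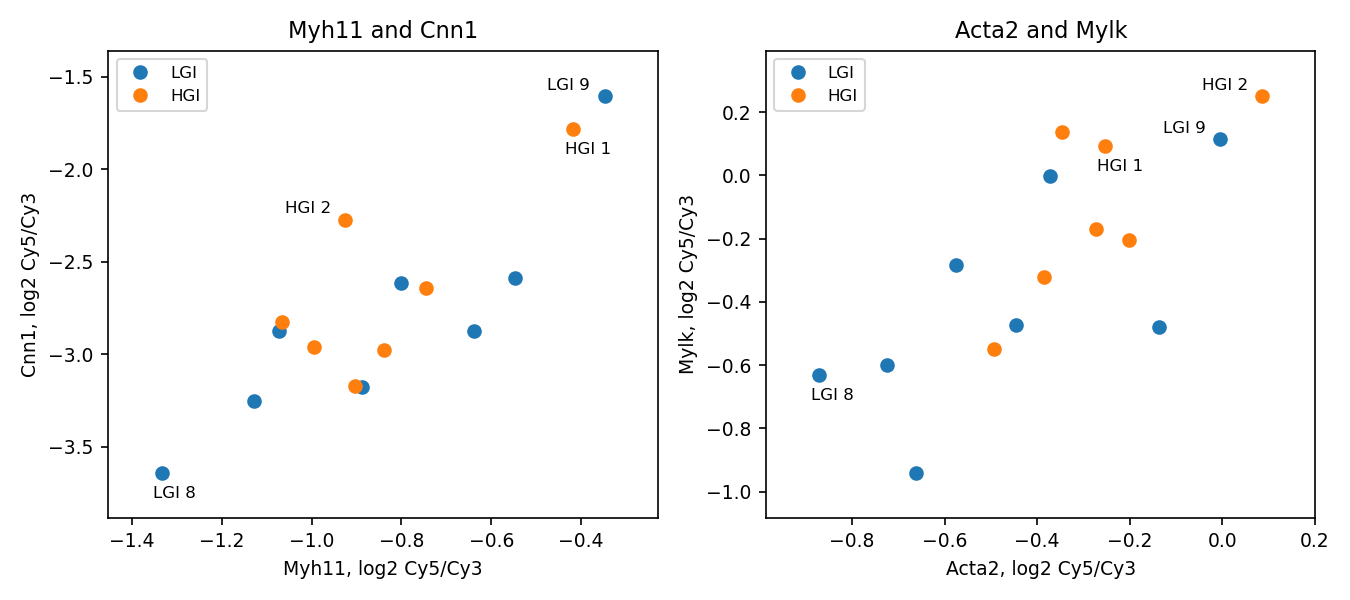
Each point is 1 of the 15 mice, by the log2 Cy5/Cy3 ratios of Myh11 and Cnn1 (left) and of Acta2 and Mylk (right), coloured by diet. LGI 9 and HGI 1 lie at the upper right and LGI 8 at the lower left for Myh11 and Cnn1 (r = 0.82), and HGI 2 lies at the upper right for Acta2 and Mylk (r = 0.75).

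No gene was among the 5 most similar in pattern to both Myh11 and Actg2, the 2 members taken as starting points. The likeness is Pearson's r with each other tested gene over the 15 arrays, given as a description with no p. The 5 nearest to Myh11 were Adgra2 (r = 0.84), Entpd2 (0.83), Nr2f2 (0.83), Cpxm2 (0.82) and Sphk1 (0.82). The 5 nearest to Actg2 were Dusp10 (0.84), Pdlim7 (0.84), Ostc (0.83), Tnfrsf12a (0.83) and Etnk2 (0.83). In HGI 9 and HGI 10, where Myh11 lay 2.51 and 2.15 above the median, Nr2f2 lay 0.58 and 0.54 above it, Cpxm2 0.41 and 0.58, Entpd2 -0.07 and 0.04, Sphk1 -0.17 and 0.05, and Adgra2 -0.28 and -0.41 from it. Ostc lay 0.87 and 0.72 above its median and Pdlim7 0.15 and 0.20, while Dusp10 lay at -0.44 and -0.30.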

How the data were processed

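The deposited scanner files hold spot intensities and background intensities in each dye from Agilent Feature Extraction, per the file headers (version 9.1.3.1; the submitters' processing notes give 9.5.1.1). Per the labels, 500 ng of RNA per sample was labelled with both dyes. The study design names 19 arrays, of which the authors excluded 2. A deposited table of log2 values covers 19836 probes. Its scale, centring and filter are unknown here, and it was used as an alternative only.

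The analysis used limma 3.58.1 (R 4.3.3), with normexp with an offset of 50, then loess within arrays, with control and outlier spots (4 to 43 on an array) at weight 0 and then left out. A probe was tested where Cy5 was well above background on at least 7 of the 15 arrays, and a gene is its brightest tested probe. Probes were named through a RefSeq table (GRCm38.p6): 23374 by accession, 6733 by symbol, 2919 by an older symbol, and 8148 kept the file's name. HGI was compared with LGI by lmFit and eBayes with no covariate, adjusted over 18202 genes at 0.05; 137 values were missing. The same scripts were tested on simulated data. Scan groups follow the order of scanning in the file headers. The labels do not say whether equal replicate numbers pair an LGI with an HGI array, and the main fit used no pairing. Correlations were tested in Python 3.11.15 with scipy 1.17.1.

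Members and gene lists were chosen with earlier results of these data known. The text names every member, of each list the 2 genes with the smallest p and the 2 with the largest smaller excess in HGI 9 and HGI 10, and the 5 genes nearest to Myh11 and to Actg2. Alternatives covered the background correction, normalization, filter, probe choice, array weights, scan groups, replicate block and leaving out each array. The number of arrays limits the precision.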

Additional observations from a re-analysis of the deposited data

Results flagged for a closer look

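Actg2 in LGI 7, at 0.20, stood apart from the other 7 LGI arrays, of which the nearest was at -0.05, a gap of 0.59 of the group's whole range. 27 groups (9 genes in LGI, in HGI without and in HGI with HGI 9 and HGI 10) were tested this way, and chance marks about 1 in 20. Without this array the Actg2 difference between the diets was 0.14 in place of 0.10.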

How the results depend on the processing

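Each diet result was recomputed under 32 alternatives. No member passed the threshold under any of them, with adjusted p from limma no lower than 0.239 (Mylk), 0.356 (Acta2) or 0.408 (Actg2), and Acta2, Actg2, Tagln, Cnn1, Lmod1 and Mylk kept a positive difference in all 32. The median member difference, 0.10, moved to 0.47 with all 17 arrays and ran from 0.07 to 0.13 with 1 array left out. It also depended on the normalization, being 0.23 with median centring in place of loess. Mylk then differed by 0.43 in place of 0.30, Acta2 by 0.35 in place of 0.21 and Tagln by 0.25 in place of 0.11. No member had a lower difference with median centring than with loess. The count of called genes, 0, became 1 with array weights, and 0 to 11 with 1 array left out (2 without LGI 7, 11 without HGI 7). Des turned positive with all 17 arrays (0.39) and in the later scan group (0.0261). Myh11 turned negative with scanner processed signals (-0.0025), Cy5 alone (-0.0154), the authors' deposited values (-0.22), array weights (-0.0138) and in the first scan group (-0.0494), and ran from -0.0681 to 0.0737 with 1 array left out (negative without LGI 2, 5, 7 or 8 or without HGI 1 or 7). Smtn turned negative with the authors' deposited values (-0.0883), in the later scan group (-0.031) and without LGI 2 or HGI 2, running from -0.0098 to 0.0337 with 1 array left out. The causes were not tested. LGI and HGI share 6 replicate numbers, whose arrays' deviations correlated at -0.47 to 0.29, and 2 of 6 LGI arrays correlated best with their own number. Over those 12 arrays the replicate block called 0 genes, gave a median member difference of 0.13 with or without it, and turned Smtn to -0.0079 (also without the block); it changed no other call.

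Members above all 15 arrays in HGI 9 and HGI 10 numbered 7 to 9 under 10 alternatives. Median centring gave 7 of 9, without Actg2 and Smtn, and no filter on dim probes gave 9 of 10. The excess of Des ran from 1.26 to 3.39 in HGI 9 over 7 ways of processing, and that of Actg2 from 0.11 to 0.44. The excess of Smtn turned negative with Cy5 alone (-0.09 and -0.06) and the authors' deposited values (-0.12 and -0.09), and in HGI 9 alone with scanner processed signals (-0.078) and no background correction (-0.001). Pairs of members that correlated past the threshold numbered 5, and became 9 with Cy5 alone, 0 with the authors' deposited values, 7 with median centring and 3 to 5 with 1 array left out. Dim probes (Myocd, Acta2 probe 5) gave no diet result.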
